A study of Homo sapiens with 8 samples.

Results

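The nuclear genes for subunits of the oxidative phosphorylation machinery were examined for single-stranded DNA in HEK293T cells with and without a short exposure to vitamin C (ascorbic acid). The members were the protein-coding genes on chromosomes 1 to 22 and X whose RefSeq symbols name subunits of complexes I to V, namely the NDUFA, NDUFB, NDUFC, NDUFS and NDUFV genes, SDHA to SDHD, the UQCR genes with CYC1, the COX4 to COX8 genes and the ATP5 genes. They numbered 89 of 19974 protein-coding genes: 38 in complex I, 4 in complex II, 10 in complex III, 17 in complex IV and 20 in complex V. Membership followed from the symbols alone, without a measured value, but the set was chosen with earlier results of these data known. Of the members, 2 (NDUFC2-KCTD14 and ATP5MF-PTCD1) are readthrough genes that span another member and share its peaks. HEK293T is an established human embryonic kidney cell line. The vitamin C cells were kept in medium with 0.5 mM vitamin C for 10 min, the control cells in medium without it, and both then received 5 mM N3-kethoxal for a further 10 min. KAS-seq uses this label to tag unpaired guanines, so that DNA opened by transcription or otherwise is enriched and appears as peaks. The 2 vitamin C and 2 control labelled libraries, each with its own peak list, were used, and the unlabelled input libraries were not analysed here. The labels do not say whether the 2 libraries of a condition came from separate cultures, so the permutation tests speak only to the spread between the libraries at hand, part or all of which may be technical.

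Oxidative phosphorylation takes place in the inner mitochondrial membrane. Complexes I and II pass electrons from NADH and succinate to ubiquinone, complex III passes them on to cytochrome c, complex IV reduces oxygen, and complex V, the ATP synthase, uses the proton gradient built by complexes I, III and IV to make ATP. Most subunits are encoded in the nucleus and a few in mitochondrial DNA. Many of the nuclear genes are short, widely expressed and have promoters bound by NRF1 and by ETS family factors such as GABPA.

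The vitamin C libraries held 9816 and 9896 peaks on these chromosomes, against 30351 and 24111 in the controls. Depth, solved from the fold and p of each peak, came to 1.22 and 0.871 labelled fragments per base of the genome in the vitamin C libraries and to 0.817 and 0.849 in the controls. In vitamin C replicate 1 the solution needed a scale of 0.776 on the labelled fragments. These depths rest on called peaks only. The part of depth, or of the input libraries, in the length of the lists was not tested. Of the markers chosen for HEK293T, PAX2, NEFM, NEFL and LHX1 had no peak in any library. Of 16 markers of other cell types, such as blood, muscle and liver, 12 had no peak in any library. ALB, APOB and HBA1 each had a peak in 1 library.

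Fewer subunit genes carried a peak with vitamin C, and those that did carried fewer, narrower and lower peaks. A gene was counted if a called peak reached, by at least 1 base, into the gene widened by 1 kb on each side. Such a peak was present at 48 and 49 members in the vitamin C libraries, against 72 and 67 in the controls. The means were 48.5 ± 0.707 and 69.5 ± 3.54 members (SD, n = 2 each), a log2 ratio of -0.52, with p = 0.333 in a two-sided exact permutation test, the lowest value possible for 2 libraries per condition. The 2 ranges did not overlap. Among all protein-coding genes, 23.0% and 23.0% carried a peak in the vitamin C libraries, against 43.2% and 39.0% in the controls, a log2 ratio of -0.84 in the number of genes. The members thus stood above the share of all genes in every library, with 53.9% and 55.1% of them carrying a peak with vitamin C, against 80.9% and 75.3% in the controls.

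The number of peaks differed more than the number of genes. The members held 71 and 72 peaks in the vitamin C libraries, against 204 and 160 in the controls, a log2 ratio of -1.35 (exact permutation p = 0.333, n = 2 each), beside -1.47 for all peaks of the genome. Peaks covered 30.7 and 29.6 kb of the members' widened spans with vitamin C, against 94.1 and 74.8 kb in the controls, a log2 ratio of -1.49 (exact permutation p = 0.333, n = 2 each). As a share of all peaks of a library, those at members made up 0.723% and 0.728% with vitamin C, against 0.672% and 0.664% in the controls. The members' part of all called peaks was therefore of similar size in the 4 libraries.

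Among the 39 members with a peak in all 4 libraries, the median widest peak measured 382 and 411 bp with vitamin C, against 912 and 870 bp in the controls, a difference of -494 bp (exact permutation p = 0.333, n = 2 each). Peak height was measured as the labelled fragments at the summit above the local background, divided by the genome-wide mean of the same library. The median of their tallest peaks was 16.7 and 17.1 times that mean with vitamin C, against 27.8 and 28.3 times in the controls, a difference of -11.1 (exact permutation p = 0.333, n = 2 each). When each list was limited to its 9816 peaks of lowest q, the length of the shortest list, the numbers of member genes with a peak became 48 and 48 with vitamin C, against 45 and 50 in the controls, and the numbers of their peaks 71 and 71, against 69 and 75. Both overlapped. In these lists the median widest peak still measured 401 and 490 bp with vitamin C, against 992 and 872 bp in the controls, and the median tallest peak 17.2 and 18.5 times the mean, against 29.1 and 29.7 times. The differences in the number of genes and of peaks thus moved with the length of the lists. The differences in width and height were of similar size in lists of equal length. A cut by q favours strong peaks, however, so it is no independent check of the widest and tallest peaks.

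A peak was present in both controls at 65 of the 89 members, while among all genes 35.3% had one. Of these 65, 39 (60.0%, 95% Clopper-Pearson interval 47.1% to 72.0%) also had one in each vitamin C library and are called kept, 17 had one in a single vitamin C library, and 9 (13.8%, interval 6.53% to 24.7%) had none with vitamin C and are called lost. Over all genes called in both controls, 49.7% were kept, 23.4% had a peak in a single vitamin C library and 26.8% were lost. The intervals cover counting over genes only, and members that lie side by side or share a readthrough gene are not independent. The lost members were NDUFA1, NDUFA5, NDUFC1 and NDUFV2 of complex I, COX6A1 of complex IV, and ATP5F1A, ATP5F1C, ATP5IF1 and ATP5MJ of complex V. For 0 of these 9 did a vitamin C peak meet the tallest peak of either control. This follows from the call itself, since those control peaks lie within the widened genes. No member was gained, that is, called in both vitamin C libraries but in neither control, beside 0.0472% of all genes without a control peak. NDUFB5 had a peak in 1 vitamin C library alone, NDUFA8 in 1 library of each condition, 8 members in 1 control alone, and 14 in no library, beside 52.5% of all genes. The count of lost members depended on the libraries used: it was 17 without vitamin C replicate 1, 18 without vitamin C replicate 2, 11 without control replicate 1 and 15 without control replicate 2. It also depended on the settings: it was 5 with genes widened by 5 kb, 4 without the members that share their span with another gene, and 0 when the lists were cut to equal length, where none of the lost calls above held.

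**Figure D1:**
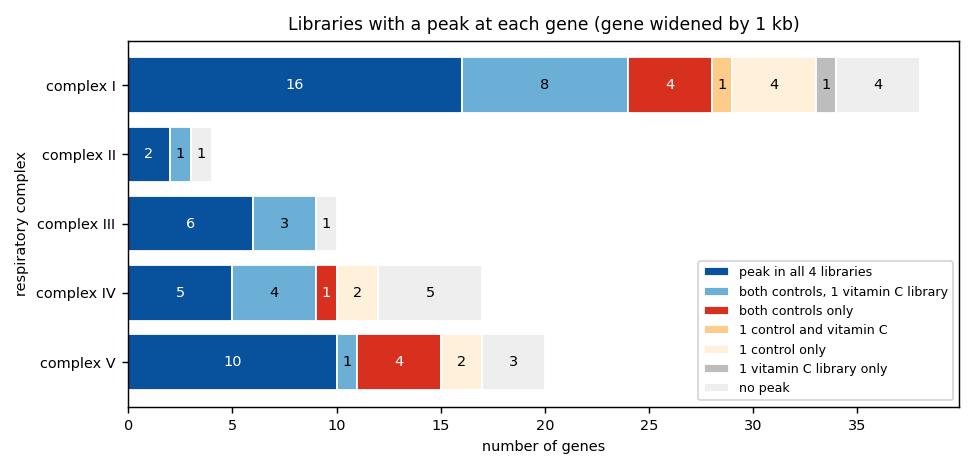
Number of member genes (horizontal axis) in each respiratory complex by the libraries in which they carried a peak, with the gene widened by 1 kb; colours give the presence pattern. Complexes II and III held no lost gene, complex I held 4 lost genes of 38, complex IV 1 of 17 and complex V 4 of 20.

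Whether a member was kept or lost went with the strength of its control peaks, as it did over all genes. Control strength was taken from the gene's best peak by the authors' fold: its percentile within the list of each control, averaged over the 2 controls. Its median was 79.6 for members with a peak in both controls and 74.0 for all such genes. When all these genes were cut into 3 equal groups by strength, 24 of 25 members in the strong group were kept and 0 were lost, beside 87.4% kept and 3.19% lost over all genes. In the middle group 13 of 22 members were kept and 2 lost, beside 43.6% and 25.0% over all genes. In the weak group 2 of 18 members were kept and 7 lost, beside 18.1% and 52.4% over all genes. The 1 strong member that was not kept was ATP5MG. The members also differed from all genes in length, with a median of 9242 bp against 24170.5 bp, and 47 of the 89 had another protein-coding gene within 1 kb. Of the 47 members with such a neighbour, 22 were kept and 5 lost, and of the 42 without one, 17 were kept and 4 lost.

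**Figure D2:**
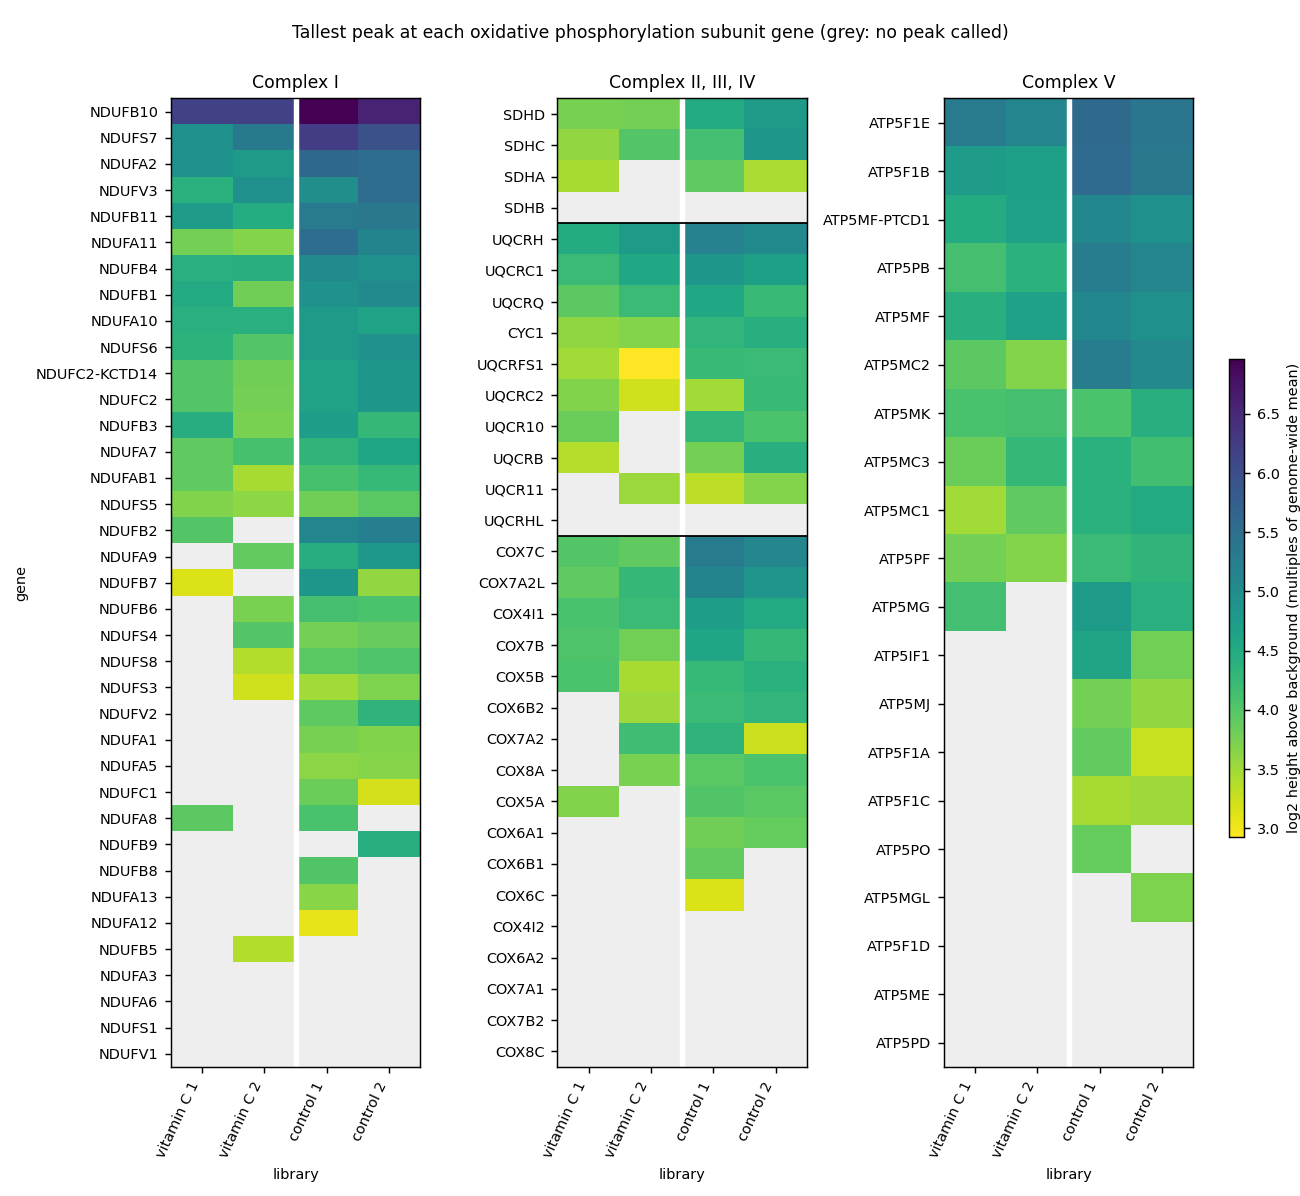
Height of the tallest peak at each member gene (rows) in the vitamin C and control libraries (columns), as log2 of the height above local background in multiples of the genome-wide mean; grey marks no called peak, and 1 member is not shown. Rows run from kept genes at the top of each complex to genes without a peak at the bottom, and the highest values stand at NDUFB10, with 71.7 and 73.0 times the mean in the vitamin C libraries and 125 and 94.3 times in the controls.

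Peaks of the subunit genes lay inside the genes and near both of their ends. Strand was available for 71 of the members, through RefSeq promoter entries, and the summits at these genes were assigned to within 1 kb of an annotated start, else to within 1 kb of the gene end, else to the gene's inside or its flank. Inside the genes lay 40.0% and 34.5% of the members' summits with vitamin C, against 46.2% and 36.6% in the controls, more than in any other zone. Near a start lay 14 of 55 (25.5%) and 18 of 58 (31.0%) with vitamin C, against 42 of 171 (24.6%) and 37 of 123 (30.1%) in the controls. Near the gene end lay 18.2% and 25.9% with vitamin C, against 20.5% and 22.8% in the controls. The groups overlapped at both ends, with differences of 0.923 and 0.406 percentage points (exact permutation p = 0.667 and 1, n = 2 each). Over all genes with a strand the same differences were 4.34 and 3.82 points, and the share inside genes differed by -8.61 points, beside -4.15 points for the members (exact permutation p = 0.667, n = 2 each).

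Within 1 kb of a start, the summits differed in the side on which they lay. Downstream of the start, inside the transcribed sequence, lay 1 of 14 (7.14%) and 7 of 18 (38.9%) start summits of the members with vitamin C, against 21 of 42 (50%) and 19 of 37 (51.4%) in the controls. The mean share was 23.0% ± 22.4 with vitamin C and 50.7% ± 0.956 in the controls (SD, n = 2 each), a difference of -27.7 points (exact permutation p = 0.333, n = 2 each). The groups did not overlap, but the 2 vitamin C libraries differed widely from each other and rest on few summits. Over all genes the shares were 52.4% and 50.8% with vitamin C, against 51.1% and 49.5% in the controls. Near the gene end, 70.0% and 66.7% of the members' summits lay beyond the end with vitamin C, against 62.9% and 53.6% in the controls. Over all genes these shares were 65.3% and 65.4%, against 61.6% and 62.3%. Peaks past the annotated end were thus common in every library, at the members as over all genes.

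**Figure D3:**
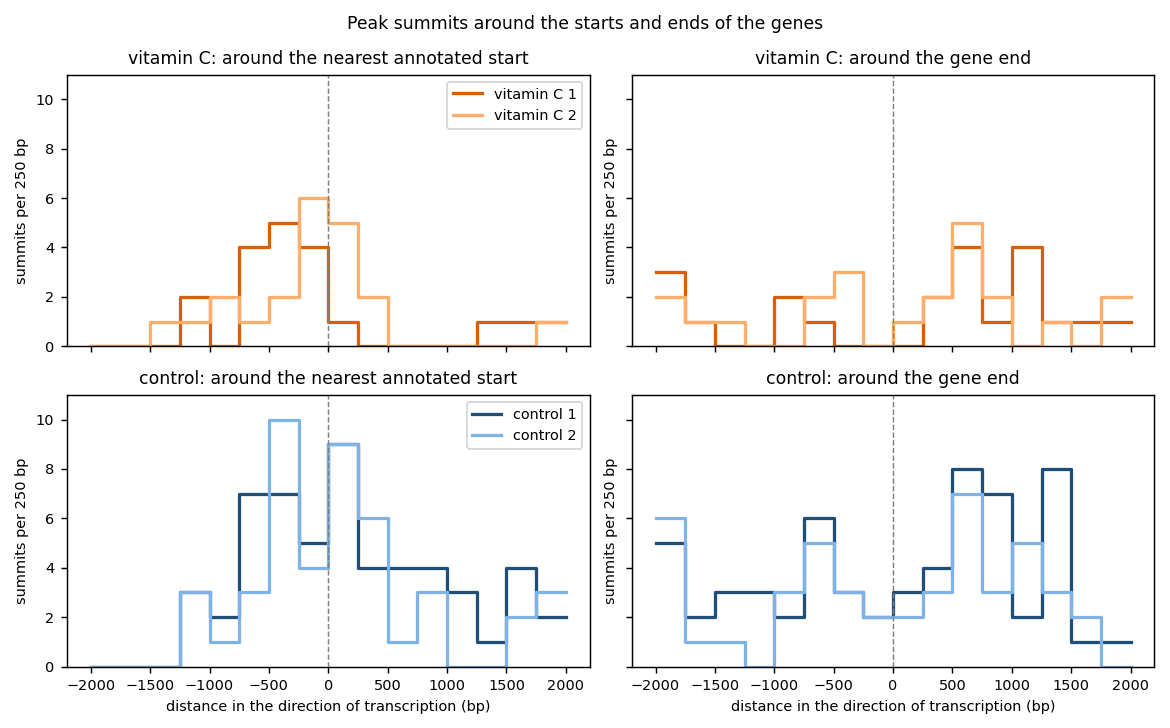
Peak summits per 250 bp (vertical axis) by distance in the direction of transcription from the nearest annotated start (left panels) and from the gene end (right panels), at the members with a known strand; each line is 1 library, vitamin C above and control below. Vitamin C replicate 1 has 1 of 14 start summits downstream of the start, while control replicate 1 has 21 of 42.

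Counting peaks by zone gave more losses near the starts than counting them over the whole gene. Near a start, 31 members had a peak in both controls, beside 17.0% of all genes with a strand. Of these, 14 were kept there, 5 had a start peak in a single vitamin C library and 12 (38.7%) had none, beside 43.8% kept and 32.1% lost over all genes. The 12 included UQCRH, ATP5PB, ATP5F1E, COX7C and NDUFA11, each of which was kept through peaks elsewhere in its span. Near the gene end, 23 members had a peak in both controls, beside 13.9% of all genes. Of these, 10 were kept there and 7 lost, beside 45.2% and 31.0% over all genes. NDUFA11, an accessory subunit of complex I, had its tallest peaks 10597 and 10550 bp from the start with vitamin C, at 13.7 and 12.8 times the mean. In the controls they lay 427 and 443 bp downstream of the start, at 45.5 and 35.4 times.

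The promoter sequence itself, from 250 bases before to 50 after the annotated start, was covered by a peak at 10 and 11 members with vitamin C, against 23 and 24 in the controls. Over all 15812 genes with a promoter entry, 816 and 805 promoters were covered with vitamin C, against 1842 and 1578 in the controls. Both controls covered the promoter sequence at 18 members, beside 8.14% of all genes with a promoter entry. Of these, 9 were kept there, 2 were covered in a single vitamin C library and 7 were lost, beside 44.8% kept and 32.5% lost over all genes. The following promoters are shown because the data bear on them directly: 4 whose opened DNA was called in all libraries and 4 in the controls only. They are RefSeq sequences on GRCh38.p14, written in the direction of the gene, and capitals mark matches on either strand to motifs of 3 factor families: NRF1 (GCGC, then 2 bases of any kind, then GCGC), ETS (CCGGAA) and YY1 (ATGGCGG). The kept promoters were those of NDUFA2 (chr5:140647581-140647880, minus strand), SDHD (chr11:112086623-112086922, plus strand), NDUFB3 (chr2:201071751-201072050, plus strand) and ATP5PF (chr21:25734855-25735154, minus strand).
NDUFA2: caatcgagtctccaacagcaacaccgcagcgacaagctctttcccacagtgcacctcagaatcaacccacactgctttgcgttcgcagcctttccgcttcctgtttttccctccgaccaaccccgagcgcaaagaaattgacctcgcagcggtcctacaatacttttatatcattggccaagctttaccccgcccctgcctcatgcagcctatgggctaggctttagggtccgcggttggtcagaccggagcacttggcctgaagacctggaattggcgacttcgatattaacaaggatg
SDHD: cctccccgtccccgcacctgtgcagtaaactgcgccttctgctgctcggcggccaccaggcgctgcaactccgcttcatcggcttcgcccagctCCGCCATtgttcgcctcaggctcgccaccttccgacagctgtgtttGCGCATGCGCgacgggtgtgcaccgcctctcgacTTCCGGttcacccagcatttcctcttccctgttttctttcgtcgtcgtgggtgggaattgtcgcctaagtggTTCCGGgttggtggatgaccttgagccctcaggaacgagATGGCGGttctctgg
NDUFB3: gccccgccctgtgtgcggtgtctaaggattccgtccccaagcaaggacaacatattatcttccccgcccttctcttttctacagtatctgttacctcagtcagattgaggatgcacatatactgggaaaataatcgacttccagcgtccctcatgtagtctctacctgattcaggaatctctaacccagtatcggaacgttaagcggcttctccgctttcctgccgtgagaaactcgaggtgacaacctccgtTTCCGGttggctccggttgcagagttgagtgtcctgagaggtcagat
ATP5PF: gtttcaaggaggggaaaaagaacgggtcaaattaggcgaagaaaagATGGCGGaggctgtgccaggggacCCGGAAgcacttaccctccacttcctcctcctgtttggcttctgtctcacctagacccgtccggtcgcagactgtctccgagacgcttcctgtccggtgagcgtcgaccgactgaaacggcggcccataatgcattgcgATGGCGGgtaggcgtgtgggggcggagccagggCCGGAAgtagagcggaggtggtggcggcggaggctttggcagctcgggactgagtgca
The lost promoters were those of NDUFA9 (chr12:4648864-4649163, plus strand), ATP5PB (chr1:111449214-111449513, plus strand), UQCRH (chr1:46303448-46303747, plus strand) and NDUFS4 (chr5:53560389-53560688, plus strand).
NDUFA9: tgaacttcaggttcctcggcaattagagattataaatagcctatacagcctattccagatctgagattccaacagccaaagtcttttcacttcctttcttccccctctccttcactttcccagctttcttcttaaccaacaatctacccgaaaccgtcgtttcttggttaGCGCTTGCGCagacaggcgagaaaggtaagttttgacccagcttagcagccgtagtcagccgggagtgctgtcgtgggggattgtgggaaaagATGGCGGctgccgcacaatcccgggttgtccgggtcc
ATP5PB: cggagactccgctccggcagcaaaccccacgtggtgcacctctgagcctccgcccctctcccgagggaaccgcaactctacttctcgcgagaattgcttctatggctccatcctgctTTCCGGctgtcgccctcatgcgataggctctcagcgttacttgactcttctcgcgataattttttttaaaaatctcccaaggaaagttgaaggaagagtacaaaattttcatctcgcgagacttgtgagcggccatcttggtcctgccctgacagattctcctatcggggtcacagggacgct
UQCRH: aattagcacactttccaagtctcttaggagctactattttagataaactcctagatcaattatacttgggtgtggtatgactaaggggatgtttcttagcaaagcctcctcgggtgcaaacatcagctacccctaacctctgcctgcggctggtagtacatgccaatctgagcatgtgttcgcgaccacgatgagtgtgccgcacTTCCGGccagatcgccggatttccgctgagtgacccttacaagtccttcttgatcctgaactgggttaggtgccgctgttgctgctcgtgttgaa
NDUFS4: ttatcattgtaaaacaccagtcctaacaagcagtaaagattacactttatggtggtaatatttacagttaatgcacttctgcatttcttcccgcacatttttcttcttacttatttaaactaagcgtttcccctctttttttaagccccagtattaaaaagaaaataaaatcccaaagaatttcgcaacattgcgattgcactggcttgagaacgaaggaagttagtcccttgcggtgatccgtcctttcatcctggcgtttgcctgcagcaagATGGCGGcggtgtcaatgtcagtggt

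The peak over the NDUFA2 promoter stood at 30.0 and 27.1 times the genome-wide mean with vitamin C, against 48.3 and 46.0 times in the controls. At SDHD it stood at 13.5 and 13.4 times, against 22.2 and 27.1 times, and at ATP5PF at 13.7 and 12.8 times, against 18.6 and 20.1 times. In these 3 genes both vitamin C values were below both control values. At NDUFB3 the values were 21.8 and 13.3 times with vitamin C, against 26.4 and 19.4 times in the controls, and the groups overlapped. Over the lost promoters no vitamin C peak was called. The control peaks that reached over them stood at 21.9 and 28.0 times at NDUFA9, 14.2 and 18.5 times at ATP5PB, 19.8 and 9.46 times at UQCRH, and 13.7 and 14.5 times at NDUFS4. A lost promoter was not always a lost start. With vitamin C, NDUFA9 had a peak in replicate 2 with its summit 353 bp downstream of the start, against 356 and 313 bp in the controls, and NDUFS4 had one in replicate 2 with its summit 155 bp downstream, against 41 and 156 bp. These vitamin C peaks were narrower and began past the 300 bases shown. ATP5PF starts head to head with GABPA, which encodes an ETS factor subunit, and the same peaks count for both genes. Other protein-coding genes also lie within 1 kb of NDUFA2 (TMCO6 and IK), SDHD (TIMM8B) and NDUFB3 (HYCC2). The same holds for NDUFA9 (AKAP3), ATP5PB (WDR77) and UQCRH (LRRC41). The part of these neighbours in the peaks was not tested.

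All 3 motifs stood in a larger share of the members' promoters than of all 15812 promoters. NRF1 matches stood in 18 of 71 (25.4%, beside 13.9% of all promoters), ETS matches in 32 (45.1%, beside 26.6%) and YY1 matches in 21 (29.6%, beside 9.15%). At least 1 of these 3 stood in 54 of 71 (76.1%, beside 40.4%). In 0 members did matches of different motifs of these 3 overlap. The GC box (GGGCGG) and the TATA motif (TATAAA) were searched as well, and neither stood in a larger share of the members' promoters. The GC box stood in 63.4% of them, beside 64.2% of all promoters, and TATA in 9.86%, beside 12.4%. Over the kept promoters, 6 of 9 held an ETS match, 1 an NRF1 match and 2 a YY1 match. The shares over the kept promoters of all genes were 42.5%, 16.5% and 17.2%. Over the members' lost promoters, 4 of 7 held an ETS match, 1 an NRF1 match and 3 a YY1 match. For the lost promoters of all genes the shares were 47.8%, 16.0% and 15.1%. The members' kept and lost promoters are too few to be compared. The sequences show the range: SDHD holds all 3 motifs, while the kept NDUFA2 promoter holds none of them. A match is only a run of letters and not a bound site.

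In complex I, the NADH dehydrogenase, the catalytic core and the accessory subunits were counted separately. The core binds NADH and carries the flavin and the iron-sulphur clusters. Of its 7 nuclear genes, 5 had a peak in both controls, and of these 1 was kept (NDUFS7), 3 had a peak in a single vitamin C library and 1 was lost (NDUFV2). NDUFS1 and NDUFV1 had no peak in any library. Of the 31 accessory genes, 23 had a peak in both controls, and of these 15 were kept, 5 had a peak in a single vitamin C library and 3 were lost. The difference between the 2 classes was not tested, since genes of a list are not replicates.

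NDUFS7 (chr19:1383907-1395584), a core subunit that holds an iron-sulphur cluster next to the ubiquinone site, had 1 peak in each library. Its height was 30.5 and 40.3 times the genome-wide mean with vitamin C, against 74.9 and 62.6 times in the controls. Both vitamin C values were below both control values. The summit lay upstream, at -676 bp from the start in vitamin C replicate 1 and -675 bp in control replicate 1, and the peak covered the tRNA gene TRF-GAA1-6 in all 4 libraries and TRN-GTT2-6 in all but vitamin C replicate 2. Opening at tRNA genes and at NDUFS7 cannot be told apart there. NDUFV2 (chr18:9102699-9134341), which holds an iron-sulphur cluster near the NADH site, had no vitamin C peak, and its control peaks of 15.2 and 20.2 times the mean lay 5100 and 5105 bp inside the gene.

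NDUFB10 (chr16:1959538-1961975), an accessory subunit, had the tallest peaks of all members. They reached 71.7 and 73.0 times the mean with vitamin C, against 125 and 94.3 times in the controls, and were 2445 and 2413 bp wide, against 2631 and 4505 bp. The vitamin C heights were lower in both libraries, whereas the widths were of similar size except in control replicate 2. RPS2, a ribosomal protein gene with snoRNA genes in its introns, lies within 1 kb, and its snoRNA genes SNORA10 and SNORA64 stand next to the peak. The tallest peaks covered neither of them in the vitamin C libraries, against SNORA10 in both controls and SNORA64 in control replicate 2. Their part in the height at NDUFB10 was not tested. NDUFV3 (chr21:42893309-42913299), an accessory subunit of the NADH-oxidising module, had heights of 20.8 and 30.6 times with vitamin C, against 31.2 and 45.8 times in the controls, with the nearest values almost touching.

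The lost accessory genes had no peak with vitamin C. In the controls, NDUFA1 (chrX:119871832-119876662) had peaks of 13.5 and 12.9 times the mean, NDUFA5 (chr7:123536997-123601651) of 12.4 and 12.6 times, and NDUFC1 of 14.3 and 9.10 times. The 2 controls did not place their tallest peak at the same site in NDUFA1 or NDUFA5: at NDUFA1 it lay upstream, at -470 bp from the start, in control replicate 1 and 752 bp past its end in control replicate 2. These lost genes were therefore weak in the controls too, with control strengths of 55.9, 49.0 and 26.8. NDUFAB1, the mitochondrial acyl carrier protein that is also part of complex I, was kept with 15.0 and 11 times the mean, against 17.2 and 19.1 times, but no base of it was covered in all 4 libraries.

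Complex II, succinate dehydrogenase, has 4 nuclear subunits and none encoded in mitochondrial DNA. SDHD (chr11:112086873-112095794), a membrane anchor, was kept, and its tallest peaks stood at 13.5 and 13.7 times the mean with vitamin C, against 22.6 and 27.1 times in the controls. SDHC (chr1:161314381-161363206), the other anchor, was also kept, with 12 and 16.0 times, against 17.6 and 28.3 times. In both anchors every vitamin C value was below every control value. SDHA (chr5:218320-268746), the flavoprotein, had a peak in vitamin C replicate 1 of 11 times and none in replicate 2, against 15.1 and 10.8 times in the controls, so the values overlapped. SDHB, the iron-sulphur subunit, had no peak in any library. The 2 membrane anchors were thus both kept, while the 2 catalytic genes differed from each other. With 2 genes in each class, no pattern of a class can be read from them.

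In complex III, the cytochrome bc1 complex, all members except the copy gene UQCRHL had a peak in both controls. Of these 9, 6 were kept, 3 had a peak in a single vitamin C library and 0 were lost. Over all genes called in both controls, 49.7% were kept and 26.8% lost. CYC1, cytochrome c1, was kept with 12.1 and 12.8 times the mean with vitamin C, against 19.8 and 21.4 times in the controls. UQCRH (chr1:46303698-46316776), the hinge subunit at the cytochrome c docking site, held 2 and 3 peaks, against 10 and 4, and these covered 1527 and 1696 bp, against 4549 and 3265 bp. Its tallest peaks stood at 22.4 and 27.1 times, against 36.2 and 33.1 times. UQCRH was thus opened over less of its length and to a lower height with vitamin C, and the peak over its promoter was not called. UQCRQ (chr5:132866642-132868847), a small subunit near cytochrome b, had 15.3 and 18.5 times, against 23.5 and 19.0 times. The tallest peak of control replicate 2 lay elsewhere, with its summit 1547 bp past the gene end. At a place covered in all 4 libraries the values were 15.3 and 18.5 times, against 23.5 and 13.8 times, and the groups overlapped. UQCRFS1, the Rieske iron-sulphur protein, was kept with 11.2 and 7.59 times, against 18.9 and 18.5 times at another site of the gene. At a place covered in all 4 libraries its control values were 10.0 and 14.3 times, and the groups overlapped. With a −log10 q of at least 5 required of every peak, 3 members of this complex remained kept.

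In complex IV, cytochrome c oxidase, 10 of the 17 members had a peak in both controls, and of these 5 were kept (COX4I1, COX5B, COX7A2L, COX7B and COX7C), 4 had a peak in a single vitamin C library and 1 was lost. COX7C (chr5:86617941-86620962), a small membrane subunit, had a single peak of 16.1 and 15.1 times the mean with vitamin C, against 3 peaks in each control whose tallest stood at 39.4 and 34.3 times. The vitamin C peak lay past the gene end in replicate 1, with its summit 1015 bp beyond it, and inside the gene in replicate 2. The tallest control peaks, with summits 1606 and 1622 bp past the end, reached beyond the 1 kb window, and both vitamin C libraries had a peak that met them. Further vitamin C peaks in that stretch that lay wholly outside the window were not counted for COX7C, so its heights do not compare the same place. COX7A2L (chr2:42335559-42368957), which takes part in respiratory supercomplexes, had 15.0 and 19.3 times, against 35.5 and 29.0 times, at different places of the gene. COX4I1 (chr16:85799695-85807068), the widely expressed form of subunit 4, had its tallest peak 672 to 698 bp past the gene end in every library. That peak stood at 16.9 and 18.5 times with vitamin C, against 25.9 and 22.5 times in the controls. When genes were not widened by 1 kb, only 1 member of complex IV was kept, and with genes widened by 5 kb 8 were, so the count for this complex rests largely on peaks outside the annotated genes.

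Complex IV and a few other subunits have paired forms, of which 1 is widely expressed and the other is restricted to certain tissues or is a copy gene. Of 8 widely expressed forms, 3 were kept (COX4I1, COX7B and UQCRH), 3 had a peak in both controls and a single vitamin C library (COX7A2, COX8A and ATP5MG), COX6A1 was lost and COX6B1 had a peak in 1 control alone. Of the 8 other forms, 6 had no peak in any library: COX4I2, COX6A2, COX7A1, COX7B2, COX8C and UQCRHL, beside 52.5% of all genes without a peak. These forms are also shorter, with a median gene length of 1350.5 bp against 8076 bp for the widely expressed ones, and a part of length in the difference was not tested. The exceptions were COX6B2, the testis form of subunit 6B, and ATP5MGL. COX6B2 (chr19:55349704-55354719) had 11.5 times the mean in vitamin C replicate 2 and no peak in replicate 1, against 18.6 and 19.7 times in the controls, and its neighbour GARIN5B lies within 1 kb. Its widely expressed partner COX6B1 (chr19:35648323-35658782) had only 1 control library with a peak, of 14.9 times. COX6A1 (chr12:120438113-120440730), the liver or general form of subunit 6A, had no peak with vitamin C, against 14.0 and 14.7 times in the controls.

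In complex V, the ATP synthase, 15 of the 20 members had a peak in both controls. Of these 10 (66.7%) were kept, 1 had a peak in a single vitamin C library and 4 (26.7%) were lost. Over all genes called in both controls, 49.7% were kept and 26.8% lost, so the lost share was close to that of all genes. The F1 head, which makes ATP, held both patterns. ATP5F1B (chr12:56638175-56645984), the catalytic beta subunit, was kept with 26.8 and 25.4 times the mean with vitamin C, against 47.1 and 40.9 times in the controls. The summits of these peaks lay outside the annotated gene, in control replicate 1 at its other end. At a place covered in all 4 libraries the control values were 42.2 and 40.9 times. BAZ2A lies within 1 kb of ATP5F1B, and its part in the peaks was not tested. ATP5F1E (chr20:59025475-59032335), the epsilon subunit, was kept with 39.3 and 34.7 times, against 47.4 and 41.4 times. ATP5F1A (chr18:46080248-46104227), the alpha subunit that forms the head together with beta, was lost, and its control peaks stood at 14.9 and 9.59 times. ATP5F1C, the gamma subunit of the rotor, was lost as well, with 11 and 11.5 times in the controls, and ATP5F1D had no peak in any library. Genes whose products occur in equal number in the head, alpha and beta, thus differed in control height and in whether a vitamin C peak was called.

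All 3 genes of the c ring, ATP5MC1, ATP5MC2 and ATP5MC3, which encode the same mature protein, were kept. ATP5MC1 (chr17:48892787-48895871) had 1 peak in each library over its start, of 11.2 and 15.1 times the mean with vitamin C, against 21.0 and 22.5 times in the controls. This peak was 299 and 276 bp wide with vitamin C, against 1485 and 1278 bp in the controls, so at the same start the opened stretch called was several times shorter. In the stalk, ATP5PB and ATP5PF were kept, ATP5PO had a peak in 1 control alone and ATP5PD in none. ATP5PB (chr1:111449464-111462773) lost the promoter peak shown above and kept a peak past its end, with 17.4 and 21.0 times with vitamin C, against 38.1 and 34.9 times. ATP5MF, a small membrane subunit, had 21.4 and 25.1 times, against 33.7 and 30.5 times, and its readthrough gene ATP5MF-PTCD1 shares these peaks. ATP5IF1 (chr1:28236124-28238100), the inhibitor of ATP hydrolysis by the synthase, was lost, with 24.4 and 13.8 times in the controls at different places of the gene. ATP5MJ (chr14:103912288-103921529), a small membrane-embedded subunit, was lost with 13.7 and 11.9 times in the controls.

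Of the 39 kept members, 35 had a tallest peak that was lower in both vitamin C libraries than in both controls, 0 had a higher one and in 4 the groups overlapped. Over all kept genes 78.2% were lower by the same rule and 0.285% higher. The tallest peak can lie at different places in different libraries, so heights were also compared at a place covered in all 4 libraries. Such a place existed at 35 kept members, and it was absent at NDUFS5, NDUFAB1, COX7A2L and COX7C. At it, 26 members were lower in both vitamin C libraries, 0 were higher and in 9 the groups overlapped, beside 76.7% lower over all kept genes with such a place. The medians over the 35 members were 17.0 and 17.1 times the genome-wide mean with vitamin C, against 25.9 and 27.1 times in the controls. Over all genes they were 21.8 and 21.7 times, against 33.3 and 30.0 times. The members' share was close to that of all kept genes, and their peaks were somewhat lower in every library.

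**Figure D4:**
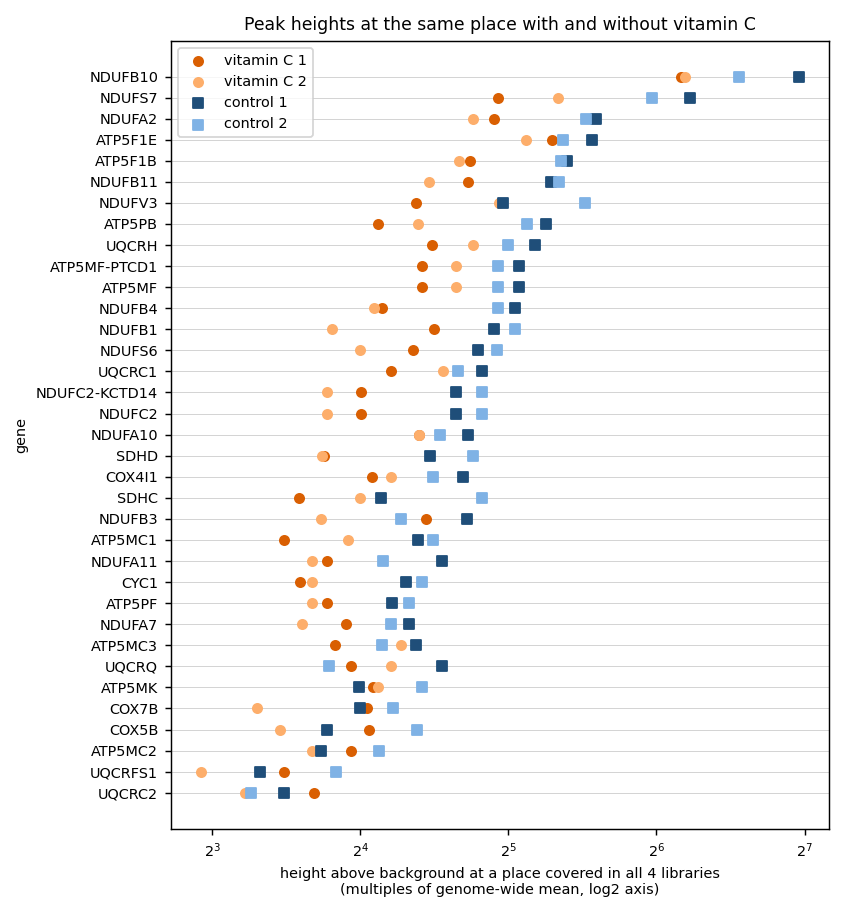
Peak height above local background in multiples of the genome-wide mean (horizontal log2 axis) at a place covered in all 4 libraries, for the kept members that have one; circles are vitamin C libraries, squares controls, and genes are ordered by their mean control height. In 26 of 35 genes both circles lie left of both squares, and the overlapping genes are NDUFB3 and genes near the bottom such as UQCRC2, UQCRFS1 and ATP5MC2.

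The 9 overlapping members were ATP5MC2, ATP5MC3, ATP5MK, COX5B, COX7B, NDUFB3, UQCRC2, UQCRFS1 and UQCRQ. At UQCRC2, a core subunit of complex III, the values were 12.9 and 9.33 times the mean with vitamin C, against 11.2 and 9.59 times in the controls. At ATP5MK, a small ATP synthase subunit, they were 17.0 and 17.4 times, against 15.9 and 21.4 times. A lower height with vitamin C was not detectable at these genes with 2 libraries per condition. The members with the highest control values, NDUFB10, NDUFS7, NDUFA2, ATP5F1E and ATP5F1B, were all lower in both vitamin C libraries.

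Genes that serve the same machinery without being subunits were counted in the same way. Of 54 assembly factors, which help to build the complexes, 42 had a peak in both controls, and of these 26 (61.9%) were kept and 9 (21.4%) lost. COX20, an assembly factor of complex IV, had heights of 52.1 and 51.1 times the mean with vitamin C, against 78.0 and 79.1 times in the controls. CYCS, the cytochrome c that links complexes III and IV, was kept with 36.3 and 25.8 times, against 50.3 and 42.5 times. Of 17 genes of the tricarboxylic acid cycle and pyruvate entry, 11 had a peak in both controls, with 6 kept and 3 lost. Of 13 regulators of mitochondrial biogenesis, 10 had a peak in both controls, with 4 kept and 4 lost. PPRC1 and GABPA were the strongest kept genes among these regulators, and SP1 and YY1 the strongest lost ones. The share of lost genes was 13.8% among the subunits and 26.8% over all genes, and the differences between these lists were not tested.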

How the data were processed

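The submitters' processing notes name hg38, the aligner Bowtie2 2.4.5 and the peak caller MACS2 2.2.7.1, besides bcl2fastq 2.19, deepTools and the trimmers cutadapt and Trim Galore; settings are not given in the sources here. Each deposited peak list gives every peak's position, the authors' fold (a linear ratio over background), −log10 p, −log10 q and a score; the highest q was 0.00999. Peaks outside chromosomes 1 to 22 and X were left out, between 4.23% and 5.06% of a list.

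Genes, tRNA and snoRNA positions and promoters came from RefSeq tables of GRCh38.p14, the same build; 71 of 89 members had a promoter entry. Fragments at the summit and local background were solved from fold and p with a tolerance of 0.005 in −log10 p, which succeeded for 100% of peaks; vitamin C replicate 1 needed a scale of 0.776. Read totals are unknown, so depth is the solved mean pileup. Groups were compared by exact two-sided permutation over libraries with scipy 1.17.1, pandas 2.3.3 and numpy 2.4.6 (Python 3.11.15); figures used matplotlib 3.10.9. Scripts were tested on simulated peaks.

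Members, gene lists and markers were chosen with earlier results of these data known. Every member could be named for its presence pattern. Values were given for up to 3 kept and 3 lost members of highest control strength per complex, complex II and paired forms. Further genes, the promoters shown, the measures of height and side of the start were chosen after their values were seen. Values of some genes are not reported here.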

Additional observations from a re-analysis of the deposited data

How the results depend on the processing

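Of 184 recalculated values, 165 stayed within the set limits, 18 moved and 1 turned its direction. Cut to equal length, the lists gave a log2 ratio of 0.02 for member genes with a peak and 0 lost members. With genes widened by 5 kb, 5 members were lost and 8 members of complex IV were kept. With genes not widened, 23 members were kept, 9 in complex I, 3 in complex III and 1 in complex IV. With a −log10 q of at least 5, 3 members of complex III were kept. Leaving out members that share their span with another gene left 4 lost and 17 kept, by construction from 42 genes, with 6 kept in complex I, 3 in complex III and 3 in complex V. Leaving out 1 library at a time gave 11 to 18 lost members, 0 to 1 gained members and 5 to 8 kept members of complex IV. Where no cause is named, the cause was not tested. Replicate numbers did not pair the libraries: over 19974 genes the replicate differences of the 2 conditions correlated at 0.00209. With a replicate block, the log2 ratios were -0.52 for member genes, -1.34 for peaks and -1.48 for covered bases, and the width difference was -494 bp, so no direction differed. With 2 libraries per condition the exact permutation test used here cannot give a p below 0.333, and peaks under the callers' threshold were not seen, so a lost peak can be a lower one.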
